A study of Homo sapiens with 6 samples.

Results

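The genes described here encode enzymes that remove acetyl or methyl groups from histones and related proteins, or that add methyl groups to them. They were taken by symbol, as the genes whose names match the KDM, HDAC, SIRT, PRMT, SETD, EZH, SUV39H and EHMT series, which gave 57 of the 23228 genes in the deposited tables. These comprised 16 lysine demethylase genes (KDM), 11 histone deacetylase genes (HDAC), 7 sirtuin genes (SIRT), 8 protein arginine methyltransferase genes (PRMT), 9 SETD genes and 6 genes of the EZH, SUV39H and EHMT pairs. RNA-seq had been performed in Hep3B, an established human hepatocellular carcinoma (HCC) cell line, with 3 control libraries from cells that carried a lentiviral non-targeting short hairpin RNA (shRNA) and 3 libraries labelled PELP1-KD from cells that carried a lentiviral shRNA against PELP1. The treatment protocol describes puromycin selection and pooled clones, and it names 2 PELP1 shRNAs where the library titles name only the first. The labels do not say whether the replicates came from separate cultures, so every p value measures the spread between these libraries, which may be technical.

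Gene totals ran from 26758636 to 34456864 reads per library. For PELP1 itself, the control replicates gave 4893, 4914 and 5102 normalized reads and the PELP1-KD replicates 4421, 4825 and 4840. PELP1 thus stood at 94.5% of control and was not called (log2 fold change −0.08, adjusted p = 0.101 from edgeR), so the labels, not the PELP1 RNA level, define the groups, and directions below are those of the labels. The study reported reduced PELP1 protein by Western blot in its PELP1-KD Hep3B cells, and RNA counts do not measure protein. With the replicate number as a block PELP1 had an adjusted p of 0.0106 from edgeR. The labels do not state that libraries of the same number were paired, and only replicate 3 was set apart by number. Results with this block are therefore given only as an alternative. All 12 hepatocyte and liver cancer markers had reads, with a summed level of 11529 to 11725 RPKM in control and 10479 to 10617 in PELP1-KD (RPKM, reads scaled to exon length and library size). Of the 4 endothelial markers CDH5 and KDR had no read in any library, VWF had at most 3 and PECAM1 52 to 74. The 6 leukocyte markers summed to 113 to 120 RPKM in control and 64.8 to 65.8 in PELP1-KD, with PTPRC at no more than 5 reads in any library, and the 6 fibroblast markers to 9.48 to 10.6 and 17.2 to 17.5. Members of a sum did not all change alike. LYZ fell from a mean of 89.5 to 30.6 RPKM and CD14 from 3.10 to 1.57, whereas CD68 rose from 23.7 to 33.0. Of the 12 hepatocyte and liver cancer markers 8 were called lower and 3 higher, against 26.7% and 26.8% of all tested genes. ALB fell from 4921 to 3219 RPKM and AFP rose from 2215 to 3415. The part of these differences in the results below was not tested.

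Chromatin enzymes of these families act in opposing pairs. Acetyl groups on histone tails, which loosen chromatin and recruit transcription factors, are removed by the zinc-dependent HDACs and the NAD-dependent sirtuins. Methyl groups on lysine are written by SET-domain enzymes and erased by the flavin-dependent KDM1 enzymes or the JmjC-domain KDM enzymes, and their effect depends on the residue. Arginine methylation by the PRMTs can either activate or repress. PELP1 is a scaffold protein without enzyme activity that is known to bind histones and to work with chromatin enzymes, among them the demethylase KDM1A and the methyltransferase PRMT6.

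A gene was called when edgeR's quasi-likelihood test gave an adjusted p below 0.05 over all genes tested. Of the 57 genes, KDM5D lies on the Y chromosome and its level is not given. Among the other 56 genes, 55 passed edgeR's filter on low counts. PRMT8, a brain-enriched arginine methyltransferase, had no read in any library, which allows up to 3 reads. Of the 55 tested genes 25 (45.5%) were called, 13 higher and 12 lower in the libraries labelled PELP1-KD. Among all 14537 tested genes 53.6% were called, 26.8% higher and 26.7% lower, a share near that of the enzyme genes. In such bulk samples fewer cells of a kind and less RNA per cell cannot be told apart. Only PRMT6 also changed at least 2-fold, where 7.64% of all tested genes did (4.79% in the lower direction). The groups did not overlap in 33 of the 55 genes, 17 higher and 16 lower, against 58.8% of all tested genes, 29.5% higher and 29.3% lower. The median absolute log2 fold change was 0.12 for the 55 genes and 0.20 for all tested genes. The signed medians were −0.00 and 0.00. Replicate 3 of both groups stood apart for EHMT2 and other genes of chromosome 6 haplotypes. Without it the count was also 25, 13 higher and 12 lower, but not for the same genes, since KDM4A, SIRT7 and SUV39H2 lost their calls.

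**Figure D1:**
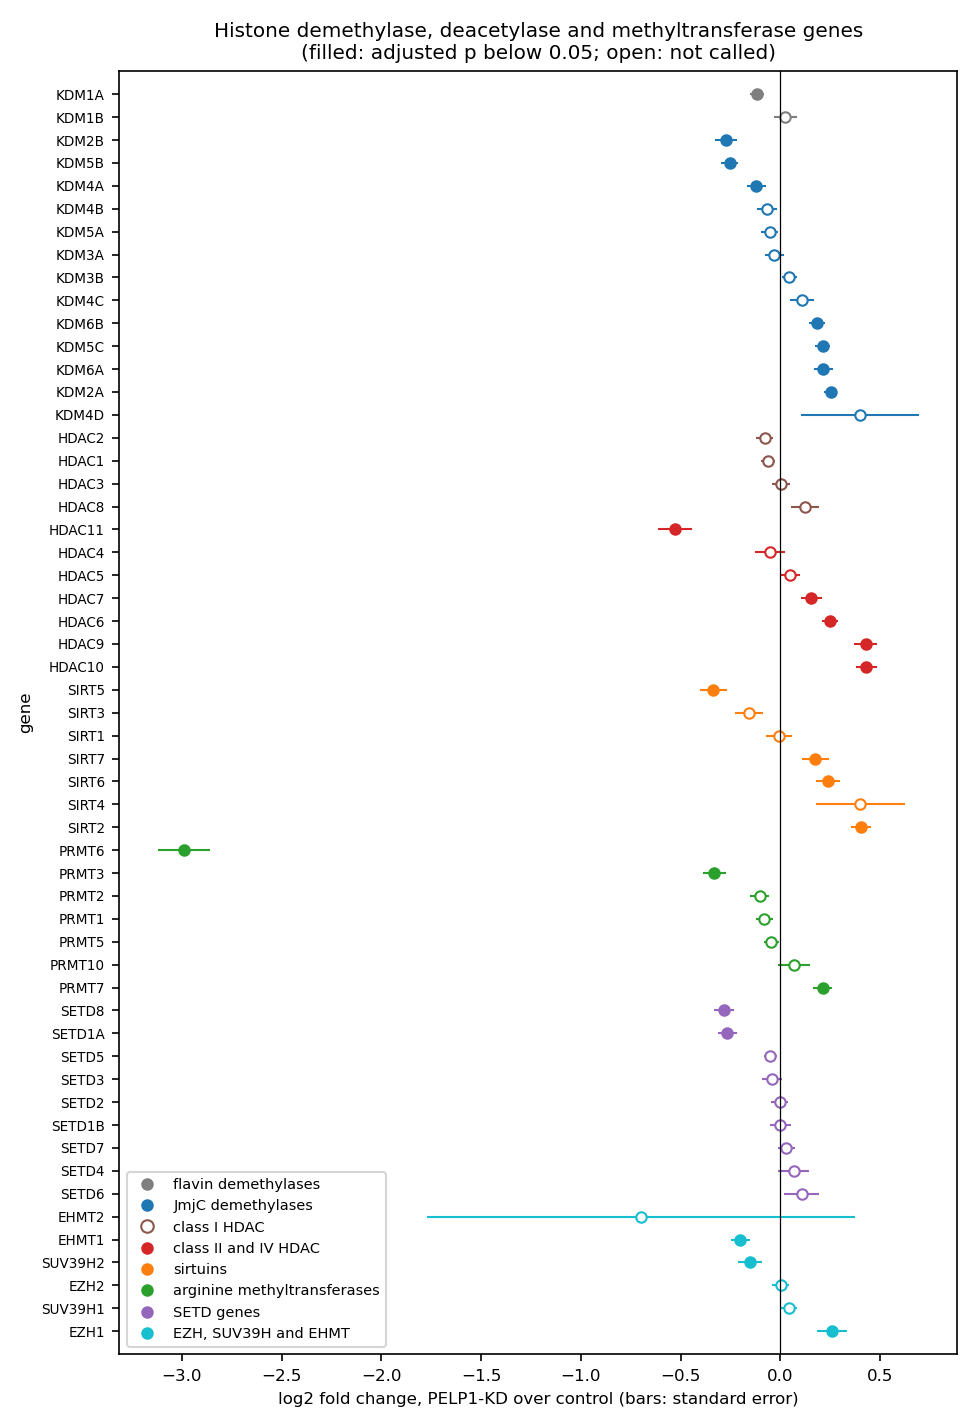
Log2 fold change (x axis, PELP1-KD over control, bars give the standard error) of the 55 tested genes (y axis), coloured by enzyme group, with filled points for an adjusted p below 0.05 from edgeR. PRMT6 lies at −2.99, and the other called genes lie between −0.53 for HDAC11 and 0.43 for HDAC10.

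PRMT6, an arginine methyltransferase that places a repressive mark on histone H3, fell further than any other called gene of these families. The control replicates had 305, 280 and 301 normalized reads and the PELP1-KD replicates 31, 43 and 38, from 333, 292 and 316 against 30, 37 and 38 reads as counted. The groups were far apart. PRMT6 fell from a mean of 296 ± 13.7 to 37.3 ± 6.26 normalized reads (SD, n = 3 each), or to 12.6% of control. The change was −2.99 ± 0.13 on the log2 scale (± standard error, adjusted p = 2.63e-13 from edgeR). Of the 14537 tested genes, 137 (0.942%) had a lower log2 fold change than PRMT6.

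PRMT6 is a single-exon gene on the plus strand of chromosome 1 of hg19, from 107599267 to 107601916, and none of its 2650 exon bases is shared with another gene of the annotation. No other gene of the tables begins or ends within 2 Mb before it. NTNG1, 80.7 kb away on the other side, was too rare to test. The nearest tested neighbours, VAV3 at 512 kb and SLC25A24 at 1076 kb, rose, with log2 fold changes of 0.31 (adjusted p = 6.22e-05 from edgeR) and 0.35 (adjusted p = 1.13e-05). PRPF38B, at 1633 kb, fell by 0.21 on the log2 scale (adjusted p = 0.000719). These genes were looked up after the values of PRMT6 had been seen.

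Promoters were available from RefSeq (GRCh38.p14) for 54 of the 57 genes, as 250 bases before and 50 after each transcription start. They are shown for the 4 called genes with 1 listed start that had the largest changes. PRMT6 (chr1:107056424-107056723, plus strand) and HDAC11 (chr3:13480056-13480355, plus strand) fell, and HDAC10 (chr22:50251216-50251515, minus strand) and SIRT2 (chr19:38899569-38899868, minus strand) rose. A link between promoter sequence and expression was not tested. Capitals mark matches on either strand to CCAAT (the NF-Y box), CACGTG (the E-box bound by MYC and MAX), GCGTG (the core bound by the aryl hydrocarbon receptor), GGGCGG (the GC box) and TTTCCCGC or TTTGGCGC (E2F-like).
PRMT6: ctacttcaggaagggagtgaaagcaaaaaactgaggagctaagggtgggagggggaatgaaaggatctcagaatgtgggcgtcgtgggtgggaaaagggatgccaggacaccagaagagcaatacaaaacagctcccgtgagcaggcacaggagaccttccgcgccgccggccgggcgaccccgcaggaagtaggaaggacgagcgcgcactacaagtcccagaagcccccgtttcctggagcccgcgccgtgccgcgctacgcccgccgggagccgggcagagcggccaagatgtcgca
HDAC11: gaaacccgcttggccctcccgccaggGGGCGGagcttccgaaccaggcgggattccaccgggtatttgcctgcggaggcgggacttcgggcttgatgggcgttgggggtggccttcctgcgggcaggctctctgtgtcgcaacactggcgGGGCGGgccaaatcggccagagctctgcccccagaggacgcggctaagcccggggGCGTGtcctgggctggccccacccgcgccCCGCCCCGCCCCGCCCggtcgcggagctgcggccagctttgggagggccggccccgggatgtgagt
HDAC10: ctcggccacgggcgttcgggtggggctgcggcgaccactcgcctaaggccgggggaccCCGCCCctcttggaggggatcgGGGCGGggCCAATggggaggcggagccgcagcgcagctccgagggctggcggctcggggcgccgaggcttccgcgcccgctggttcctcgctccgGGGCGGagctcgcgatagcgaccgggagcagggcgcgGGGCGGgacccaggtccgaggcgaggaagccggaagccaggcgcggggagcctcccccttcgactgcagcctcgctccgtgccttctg
SIRT2: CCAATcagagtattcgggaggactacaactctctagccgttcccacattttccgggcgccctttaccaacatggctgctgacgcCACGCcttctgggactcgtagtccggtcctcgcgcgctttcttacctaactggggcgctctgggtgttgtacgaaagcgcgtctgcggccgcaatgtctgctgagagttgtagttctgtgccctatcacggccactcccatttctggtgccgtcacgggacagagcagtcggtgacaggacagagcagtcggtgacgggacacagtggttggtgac
The PRMT6 promoter held none of these motifs and 25 CpG dinucleotides, against a median of 14 over all 35116 promoters of the table and of 30 over the promoters of these enzyme genes. HDAC11 had 5 GC boxes, 3 of them just before the start, each sharing 1 base with the next, and 1 GCGTG. HDAC10 had 4 GC boxes and 1 CCAAT, and SIRT2 had 1 CCAAT and 1 GCGTG. Of all promoters, 34.6% held CCAAT, 7.26% CACGTG, 36.5% GCGTG, 44.95% GGGCGG and 2.27% an E2F-like motif. Of the 77 promoters of these enzyme genes other than KDM5D, the shares were 36.4%, 10.4%, 61.0%, 67.5% and 5.2%. The promoters of HDAC7, HDAC8, KDM5C, SETD7 and SIRT4 also held none of the motifs.

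The other arginine methyltransferases differed far less. PRMT3, which methylates a ribosomal protein, went from 942, 960 and 910 normalized reads to 748, 716 and 771, without overlap. It fell to 79.5% of control (log2 fold change −0.33, standard error 0.06, adjusted p = 5.43e-05 from edgeR). PRMT7, which makes only monomethylarginine, rose from 1382, 1382 and 1441 to 1584, 1632 and 1657 normalized reads (log2 fold change 0.21, standard error 0.05, adjusted p = 0.000699). PRMT1, the main source of asymmetric dimethylarginine in cells, was by far the highest of these enzyme genes per length, at 286 ± 11.6 RPKM in control and 271 ± 17.9 in PELP1-KD (SD, n = 3 each). Its log2 fold change of −0.08 was not called (adjusted p = 0.118 from edgeR), but was called with the replicate block (−0.08, adjusted p = 0.00149). PRMT5, the main symmetric methyltransferase, had 3377 ± 48.4 and 3272 ± 15.9 normalized reads (SD, n = 3 each) and was not called (log2 fold change −0.05, 95% interval −0.15 to 0.06). PRMT2 (log2 fold change −0.10, adjusted p = 0.0772; with the block −0.10, adjusted p = 0.0124) and PRMT10 (0.07) were not called. In all, 1 gene of the 7 tested was higher and 2 were lower, against 26.8% and 26.7% of all tested genes, and 4 were not called. Per length PRMT6 was low beside its relatives, at 3.55 ± 0.16 RPKM in control and 0.45 ± 0.08 in PELP1-KD (SD, n = 3 each). The whole family summed to 366 to 389 RPKM in control and 338 to 375 in PELP1-KD, and these ranges overlap.

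**Figure D2:**
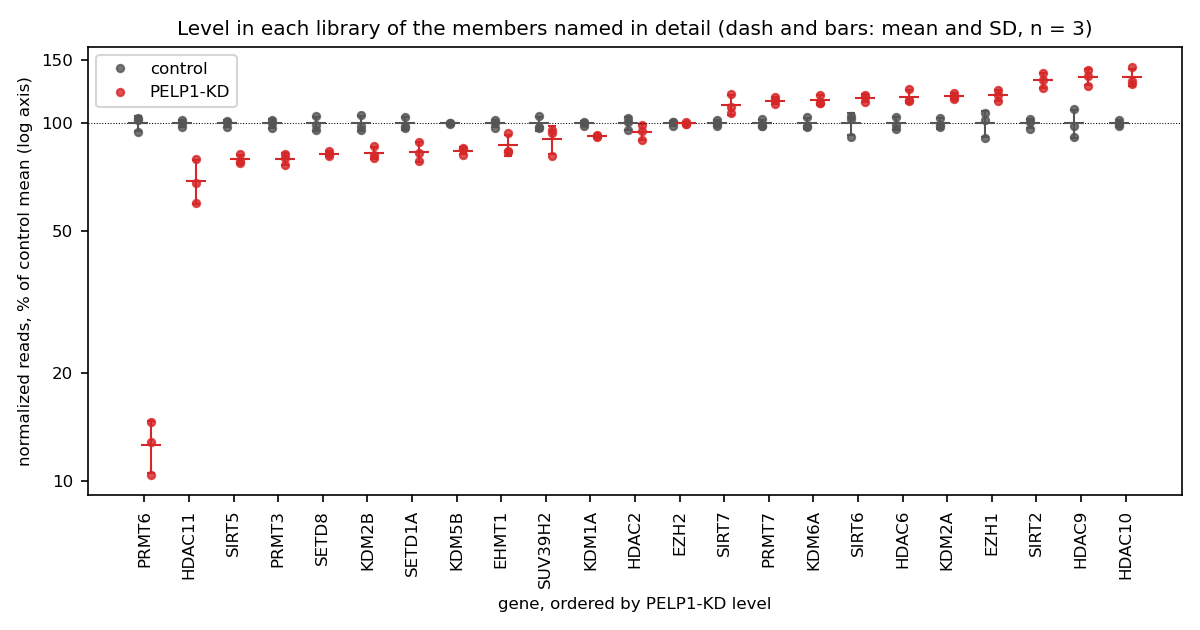
Normalized reads of each library as a percentage of the control mean (y axis, log scale) for the genes named in detail (x axis, ordered by the PELP1-KD level), with points for libraries, dashes for means and bars for the SD (n = 3). PRMT6 alone falls to 12.6% of control, HDAC11 stands at 69.2% and HDAC10 at 134.8%.

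Among the histone deacetylases, the class I genes and the others gave different counts. Of the class I HDACs, HDAC1, HDAC2 and HDAC3 are nuclear catalytic subunits of corepressor complexes. None of HDAC1, HDAC2, HDAC3 and HDAC8 was called, whereas 5 of the 7 class II and class IV genes were, 4 higher and 1 lower. Of all tested genes 53.6% were called, 26.8% higher and 26.7% lower, and the difference between the classes was not tested. HDAC1 had 6024, 5916 and 5938 normalized reads in control and 5773, 5686 and 5666 in PELP1-KD, a small and not called difference without overlap (log2 fold change −0.06, adjusted p = 0.138 from edgeR). HDAC2 had 5738, 5890 and 5440 against 5426, 5635 and 5104 (log2 fold change −0.08, adjusted p = 0.123). With the replicate number as a block, a pairing that the labels do not state, HDAC1 (−0.06, adjusted p = 0.0308) and HDAC2 (−0.08, adjusted p = 0.00788) were called. In both genes each control library lay above the PELP1-KD library of the same number. HDAC3 stood at 0.00, and HDAC8 was not called either (log2 fold change 0.12, 95% interval −0.07 to 0.32).

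HDAC10, which deacetylates polyamines, rose from 1153, 1164 and 1198 to 1514, 1543 and 1681 normalized reads, or to 134.8% of control (log2 fold change 0.43, standard error 0.05, adjusted p = 6.96e-07 from edgeR). HDAC10 spans 50683613 to 50689834 of chromosome 22 (hg19). HDAC9, a class IIa enzyme that acts as a corepressor of MEF2 factors, rose from 1917, 1723 and 1607 to 2374, 2468 and 2225 (log2 fold change 0.43, standard error 0.06, adjusted p = 2.77e-06), and its gene spans 18126572 to 19036992 of chromosome 7. The tubulin deacetylase gene HDAC6, which like HDAC10 belongs to class IIb, rose from 4128, 4014 and 4351 to 4843, 4817 and 5187 (log2 fold change 0.25, adjusted p = 4.86e-05), and HDAC7 of class IIa by 0.16 (adjusted p = 0.0171), a call lost without control replicate 1 or 2. In each of these genes the libraries of the groups did not overlap, as in 58.8% of all tested genes. HDAC4 (log2 fold change −0.05) and HDAC5 (0.05), also of class IIa, were not called. HDAC11, the only class IV enzyme and known to remove longer fatty acyl groups, went the other way. It fell from 589, 580 and 565 to 394, 347 and 458 normalized reads (log2 fold change −0.53, standard error 0.08, adjusted p = 2.44e-05), with a wider spread in PELP1-KD (SD 56.2) than in control (SD 12.5). HDAC11 lies on chromosome 3 of hg19 from 13521715 to 13547924.

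The sirtuins also went both ways, with 3 of 7 higher and 1 lower, against 26.8% and 26.7% of all tested genes, and 3 not called. SIRT2, a mainly cytoplasmic deacetylase, rose from 1327, 1386 and 1410 to 1729, 1818 and 1908 normalized reads (log2 fold change 0.40, standard error 0.05, adjusted p = 1.01e-06 from edgeR). It lies on chromosome 19 of hg19 from 39369195 to 39390502, where exons of NFKBIB overlap it on the other strand, and the counting was by strand. The nuclear sirtuin SIRT6, a deacetylase with a role in DNA repair and glucose metabolism, rose from 730, 818 and 836 to 943, 911 and 954 (log2 fold change 0.24, adjusted p = 0.0024). SIRT7, the nucleolar sirtuin, had 561, 554 and 575 against 625, 601 and 682 (log2 fold change 0.18, adjusted p = 0.0316). This call was lost when control replicate 1 or 2 or PELP1-KD replicate 3 was left out, with an adjusted p of up to 0.146, and also without replicate 3 of both groups and with DESeq2. SIRT5, the mitochondrial enzyme that removes succinyl and malonyl groups, fell from 490, 507 and 508 to 389, 411 and 394 (log2 fold change −0.34, standard error 0.07, adjusted p = 0.000392). SIRT1, the best known nuclear sirtuin, was not called (−0.01). The other mitochondrial sirtuins, SIRT3 (log2 fold change −0.16, adjusted p = 0.0688) and the rare SIRT4 (28.2 ± 2.90 and 37.3 ± 1.41 normalized reads, SD, n = 3 each; adjusted p = 0.141), were not called. The replicate block gave SIRT3 an adjusted p of 0.0241, at −0.16.

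KDM1A (LSD1), the flavin-dependent demethylase of the CoREST complex, had 4348, 4440 and 4458 normalized reads in control and 4045, 4099 and 4065 in PELP1-KD. The groups did not overlap, and KDM1A fell to 92.2% of control (log2 fold change −0.12, standard error 0.04, adjusted p = 0.0106 from edgeR). Its paralog KDM1B was not called (log2 fold change 0.03, 95% interval −0.13 to 0.18). Of the 13 tested JmjC demethylase genes, 4 rose and 3 fell, against 26.8% and 26.7% of all tested genes, and 6 were not called. KDM2A and KDM2B, which bind unmethylated CpG islands, went in opposite directions. KDM2A rose from 19939, 19681 and 20972 to 24005, 23630 and 24558 normalized reads (log2 fold change 0.25, standard error 0.03, adjusted p = 1.5e-06). KDM2B fell from 1317, 1280 and 1412 to 1092, 1069 and 1156 (log2 fold change −0.27, standard error 0.05, adjusted p = 0.000243).

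The KDM5 and KDM6 genes, erasers of an activating and of a repressive methyl mark of histone H3, gave further calls among demethylases. Their changes were small, near the median absolute log2 fold change of 0.20 over all tested genes. KDM5B fell from 1877, 1890 and 1884 to 1593, 1610 and 1538 normalized reads (log2 fold change −0.25, adjusted p = 6.63e-05 from edgeR), while KDM5C on the X chromosome rose from 6597 ± 201 to 7642 ± 226 (SD, n = 3 each; log2 fold change 0.21, adjusted p = 6.47e-05). KDM6A (UTX), also X-linked, rose from 1611, 1517 and 1513 to 1764, 1765 and 1863 (log2 fold change 0.22, adjusted p = 0.00065), and KDM6B (JMJD3) from 2506 ± 71.6 to 2846 ± 49.6 (SD, n = 3 each; log2 fold change 0.18, adjusted p = 0.000818). Both KDM6 genes were higher. KDM3A (−0.03), KDM3B (0.05) and KDM5A (−0.05), and KDM4B (−0.07) and KDM4C (0.11), were not called. Of the KDM4 genes KDM4A was called lower (log2 fold change −0.12, adjusted p = 0.0365), and this call was lost with DESeq2, without replicate 3 of both groups and upon omission of any 1 library other than control replicate 1, with a log2 fold change as small as −0.08. KDM4D was rare, at 19.7 ± 4.67 and 26.1 ± 7.42 normalized reads (SD, n = 3 each).

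Genes of the SETD series were mostly not called, with 2 of 9 lower and none higher, against 26.7% and 26.8% of all tested genes. SETD8 (KMT5A), which places the monomethyl mark of histone H4 needed in the cell cycle, fell from 1650, 1510 and 1560 to 1315, 1274 and 1294 normalized reads (log2 fold change −0.28, standard error 0.05, adjusted p = 7.13e-05 from edgeR). SETD1A, the catalytic subunit of a COMPASS complex at active promoters, fell from 2367, 2404 and 2549 to 1912, 2010 and 2167 (log2 fold change −0.26, standard error 0.05, adjusted p = 0.000139). Its paralog SETD1B stood at 1047 ± 33.2 and 1048 ± 41.5 (SD, n = 3 each) and was not called. The other SETD genes not called, SETD2 to SETD7, had log2 fold changes between −0.05 for SETD5 and 0.11 for SETD6. Beside these, 15 of 20 proliferation genes were called lower and 1 higher, against 26.7% and 26.8% of all tested genes. Their median log2 fold change was −0.21, against 0.00 for all tested genes. The part of proliferation in the values of SETD8 was not tested.

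EZH2, the catalytic subunit of polycomb repressive complex 2, had 2383, 2389 and 2319 normalized reads in control and 2390, 2350 and 2358 in PELP1-KD. The groups overlapped and no difference was detected, with a log2 fold change of 0.00 and a 95% interval of −0.11 to 0.11 (adjusted p = 0.98 from edgeR). EZH1, its paralog that prevails in cells that do not divide, rose from 437, 419 and 372 to 508, 491 and 472 (log2 fold change 0.26, standard error 0.08, adjusted p = 0.007). EHMT1 (GLP), which methylates histone H3 in euchromatin, fell from 2263, 2334 and 2379 to 1937, 1946 and 2182 (log2 fold change −0.20, adjusted p = 0.00176). SUV39H1, an enzyme of constitutive heterochromatin, was not called (log2 fold change 0.04, 95% interval −0.08 to 0.16). SUV39H2, with 1175, 1094 and 1083 normalized reads in control and 1068, 1049 and 905 in PELP1-KD, was called lower (log2 fold change −0.15, adjusted p = 0.0468), a call that was lost with DESeq2, without replicate 3 of both groups, with a minimum of 1 RPKM and upon omission of any 1 library other than PELP1-KD replicate 1. Its log2 fold change was −0.08 without PELP1-KD replicate 3.

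EHMT2 (G9a), the partner of EHMT1, could not be measured reliably. The annotation places its exons on 7 sequences of hg19, chromosome 6 and its alternative haplotypes, and the counting shared such reads or dropped those of low mapping quality. It had 74, 103 and 559 normalized reads in control and 101, 76 and 267 in PELP1-KD, so that replicate 3 of each group stood apart. The log2 fold change of −0.70 had a standard error of 1.07 (adjusted p = 0.629 from edgeR), and it was 0.77 without control replicate 3. Its length in the tables, 26897 bases, sums over all copies, so no level per length is given.

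**Figure D3:**
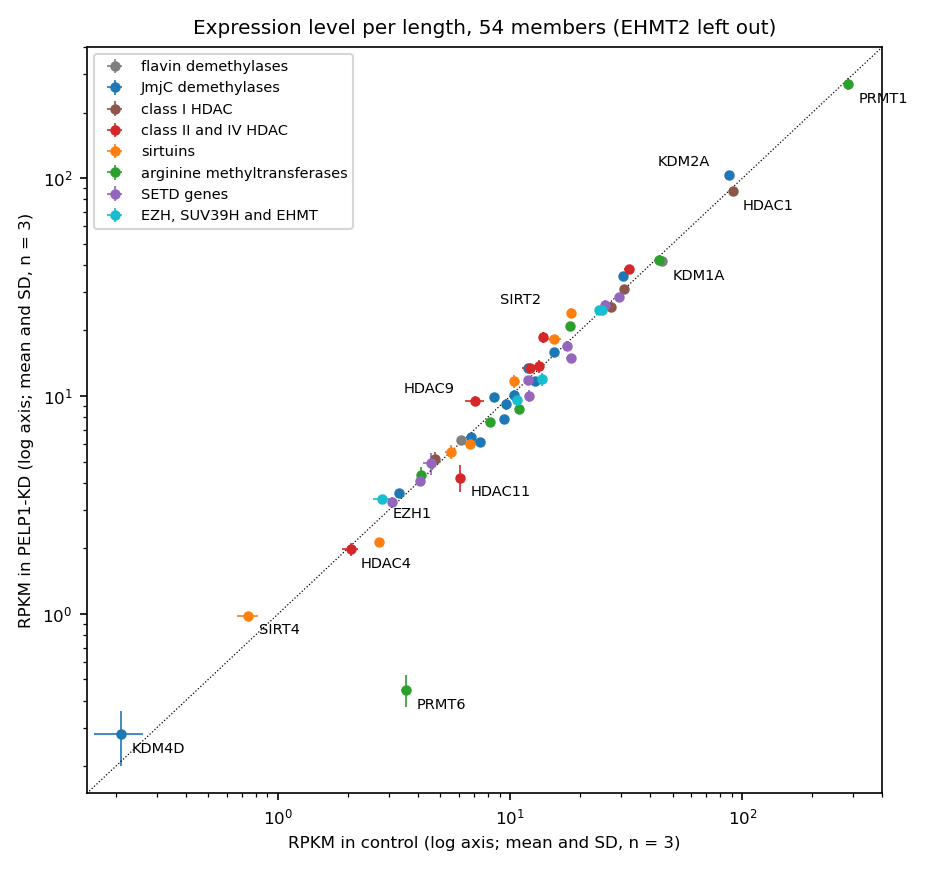
RPKM in control (x axis, log scale) against PELP1-KD (y axis, log scale) for 54 genes, with the mean and SD of 3 libraries per group, and a dotted line of equality. PRMT1 is highest at 286 and 271 RPKM, and PRMT6 is the point far below the line at 3.55 and 0.45 RPKM.

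Compared per length, these enzyme genes were spread over a wide range. The median of the tested genes was 10.9 RPKM in control, against 7.91 RPKM for all tested genes. After PRMT1 came HDAC1 (90.7 ± 0.87 RPKM) and KDM2A (87.1 ± 2.95), whose control libraries overlapped, and then KDM1A (45.2 ± 0.60) and PRMT5 (43.5 ± 0.62), which did not overlap (SD, n = 3 each). KDM2A passed HDAC1 in the libraries labelled PELP1-KD, with 104 ± 2.01 against 86.9 ± 0.86 RPKM. At the low end HDAC4 had 2.05 ± 0.16 RPKM in control, SIRT4 0.74 ± 0.08 and KDM4D 0.21 ± 0.05. The summed RPKM of the 7 class II and IV HDAC genes was 84.0 to 89.6 in control and 97.1 to 105 in PELP1-KD, and that of the sirtuins was 57.9 to 61.5 and 66.98 to 71.2, neither with overlap. The class I HDAC genes summed to 153 to 154 and 146 to 151 RPKM, lower in PELP1-KD and also without overlap. The JmjC demethylase genes summed to 210 to 219 and 231 to 238 RPKM, higher and without overlap. Sums of the flavin demethylases and of the SETD genes were lower, again without overlap. That of the EZH, SUV39H and EHMT genes was 76.0 to 76.8 RPKM in control and 74.0 to 75.6 in PELP1-KD. It includes EHMT2, which could not be measured reliably, so this narrow gap is not interpreted. How often sums over other sets of genes separate was not computed.

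Ratios of reads per kilobase were formed within each library for 12 pairs of related enzymes, which needs no scaling between libraries. In 9 of the 12 pairs the groups did not overlap, each with p = 0.1 (two-sided exact permutation test, the smallest p that 3 against 3 libraries allow, 0.133 after Benjamini-Hochberg adjustment over the 12 pairs). Single genes did not overlap in 58.8%, but a ratio of 2 genes is another measure, and its share over other gene pairs was not computed. PRMT1 over PRMT6, among the 9, went from a ratio of 80.6 to 609 and repeats the change of PRMT6. KDM2A over KDM2B rose from log2 ratios of 3.56, 3.58 and 3.53 to 4.10, 4.11 and 4.05, or from a ratio of 11.8 to 16.96. EZH2 over EZH1 had 3.06, 3.13 and 3.25 in control and 2.85, 2.87 and 2.93 in PELP1-KD, a ratio of 8.86 against 7.38. SETD1A over SETD1B had a ratio of 2.96 in control and 2.46 in PELP1-KD, and KDM5A over KDM5B one of 0.72 and 0.83. HDAC1 over HDAC2 overlapped, at 3.35 and 3.39 (exact permutation p = 0.7), as did KDM6A over KDM6B, at 0.72 and 0.73 (exact permutation p = 0.5). These tests do not use the replicate numbers, and within each number HDAC1 over HDAC2 was slightly higher in PELP1-KD, in 3 of 3. The pair of EHMT genes has no usable ratio, for the reason given above.

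**Figure D4:**
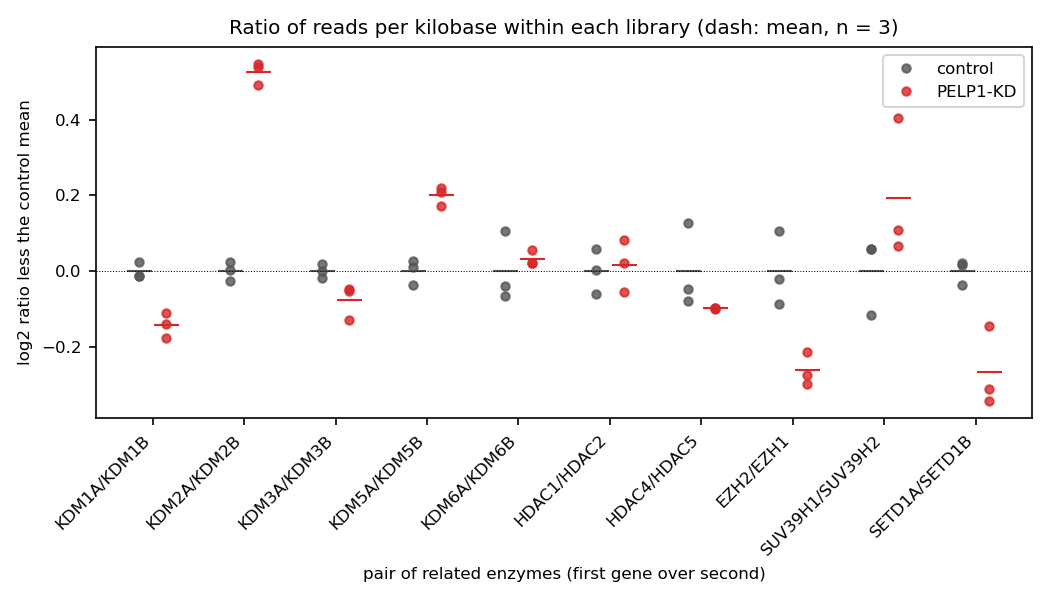
Log2 ratio of reads per kilobase between paired enzyme genes in each library, less the control mean of that pair (y axis), for 10 pairs (x axis), with points for libraries and dashes for group means (n = 3). KDM2A over KDM2B lies 0.53 above the control mean and EZH2 over EZH1 0.26 below it, and the HDAC1 over HDAC2 ratios overlap.

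Genes of the same pathways outside these symbol series were taken from lists of other histone modifiers and of the subunits that hold the enzymes. Of 98 tested genes 20 were higher and 31 lower (52.0% called, against 53.6% of all tested genes), with a median log2 fold change of −0.03, and none changed 2-fold. HDAC complex subunits had 4 of 27 higher and 10 lower. Among them MBD3 (log2 fold change −0.42, adjusted p = 1.36e-06 from edgeR) and MTA1 (−0.28, adjusted p = 1.21e-05), both of the NuRD complex, fell, while TBL1XR1 of the NCoR complex (0.26, adjusted p = 9.56e-05) and SAP30 of the SIN3 complex (0.30, adjusted p = 0.000189) rose. Of 9 subunits of polycomb repressive complex 2 tested, 2 were higher and 2 lower, namely JARID2 (0.31) and PHF1 (0.34) against PHF19 (−0.34) and AEBP2 (−0.32). The groups overlapped for PHF1, whose exons lie on 2 sequences of hg19. Its call was lost with DESeq2, without replicate 3 of both groups and upon omission of any 1 library other than control replicate 1, and its log2 fold change was 0.17 without control replicate 3 and 0.52 without control replicate 1. The COMPASS list had 3 of 11 higher and 4 lower, with DPY30 at 0.21 and ASH2L at 0.13, and MEN1, the scaffold of the MLL complexes, at −0.41 (adjusted p = 3.24e-07) and C16orf53 (PAGR1) at −0.23. The ASH2L call was lost without control replicate 1 or 3 or PELP1-KD replicate 2.

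Lysine methyltransferase genes without a SETD-number symbol had 5 of 20 higher and 7 lower. SETDB2 (log2 fold change 0.55, adjusted p = 3.99e-05 from edgeR) and MLL2 (0.23) rose, and WHSC1 (NSD2, −0.28, adjusted p = 1.79e-06) and SETDB1 (−0.30) fell. Of 8 further demethylase genes 2 were higher, PHF8 (0.29) and JHDM1D (KDM7A, 0.21), and 2 lower, PHF2 (−0.35) and the rare HR (−0.92). The calls of JHDM1D and HR were lost with DESeq2 and without control replicate 3 or PELP1-KD replicate 1, and HR stood at −0.60 without the latter. CARM1, a PRMT under another symbol, fell from 3249 to 2839 normalized reads (−0.19, adjusted p = 0.0014), as did CLNS1A, a partner of PRMT5 (−0.18), and C17orf79 (COPRS) rose by 0.14. The C17orf79 call was lost without control replicate 2 or 3 or PELP1-KD replicate 3, and without replicate 3 of both groups, where its log2 fold change was 0.09. Among 19 tested acetyltransferase genes and their partners, 3 were higher and 4 lower, with NCOA1 at 0.21, KAT6B at 0.26, KAT5 (TIP60) at −0.40 (adjusted p = 2.29e-06) and TADA2A at −0.29.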

How the data were processed

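RNA-seq of 3 control and 3 PELP1-KD Hep3B libraries was analysed. The authors deposited estimated counts per gene, made per the file headers with featureCounts 1.5.0-p1 on the hg19 gene annotation, by strand, with a mapping quality of at least 2 and multimapping or overlapping reads split into fractions. The submitters' processing notes name HISAT2, SAMtools and bcl2fastq, whereas the methods of the study name TopHat2 and HTSeq, and the labels differ on the RNA and library kits. Between 10.6% and 13.3% of the values in a library were not whole, and these were rounded. Totals of 26758636 to 34456864 reads set the precision.

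Groups came from the sample labels. edgeR 4.0.16 in R 4.3.3 (filterByExpr, TMM scaling, quasi-likelihood test, Benjamini-Hochberg adjustment over 14537 genes) compared the groups over all genes. Normalized reads are counts scaled by TMM library size, and 95% intervals use 4 residual degrees of freedom. These intervals are wider than the test implies. Those of the called genes KDM4A (−0.25 to 0.01), SIRT7 (−0.01 to 0.36) and SUV39H2 (−0.32 to 0.02) include 0. DESeq2 1.42.0, other scalings and filters, a stricter threshold, each library left out and a replicate block were alternatives. The block with a GC and length correction and the fit without replicate 3 of both groups were added after seeing the data. Libraries with the same number deviated together (correlations of 0.34, 0.25 and 0.67 over 6370 genes), and by the rule that each exceed 0.1 the block was given beside the results. Control replicate 2 with PELP1-KD replicate 1 (0.42) and control replicate 1 with PELP1-KD replicate 2 (0.24) were as alike, so that only replicate 3 was set apart by number. The fits were also run on simulated counts with a uniform spread and no effect of replicate number. That checks the code, not the error rate in these data.

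The genes and lists were chosen with earlier results of these data known. Values in each library are given for up to 4 called genes per enzyme group with the largest changes and a mean of at least 100 reads, plus KDM1A, HDAC2, EZH2 and PRMT6, and for each list of related genes up to 2 in each direction with the smallest p are named. Values of other genes, HDAC1, EHMT2, the promoters and the neighbours of PRMT6 among them, were chosen after they were seen.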

Additional observations from a re-analysis of the deposited data

How the results depend on the processing

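Of the 25 called enzyme genes, 21 kept an adjusted p below 0.05 in every other fit, all but HDAC7, KDM4A, SIRT7 and SUV39H2, and none changed sign. At the stricter threshold of 0.01 KDM1A was lost as well. The count was 22 with DESeq2, 24 with a minimum of 1 RPKM, 20 at that threshold, 22 to 26 when a library was left out, 30 with the replicate block and 33 with the block and a GC and length correction. The block added HDAC1, HDAC2, PRMT1, PRMT2 and SIRT3, all lower. PRMT6 was the only gene called at 2-fold in each of these fits. The PELP1 log2 fold change passed the threshold under the replicate block (−0.083, adjusted p = 0.0106), once GC and length were also corrected (−0.086, adjusted p = 0.00188) without replicate 3 of both groups (−0.087, adjusted p = 0.0242) and without PELP1-KD replicate 3 (−0.105, adjusted p = 0.0179), and lay between −0.105 and −0.040 when a library was left out. The EZH2 log2 fold change, close to 0, turned sign with DESeq2 size factors (−0.0025), upper-quartile scaling (−0.0030), DESeq2 (−0.0032), at least 10 reads in every library (−0.0042) and without replicate 3 of both groups (−0.010), and lay between −0.0087 and 0.0087 when a library was left out. The EHMT2 log2 fold change lay between −1.45 and 0.77 when a library was left out and was 0.014 without replicate 3 of both groups. The cause was not tested. Among the pair ratios, the 9 without overlap kept their direction in each fit, whereas the small differences of HDAC1 over HDAC2 and KDM6A over KDM6B and that of EHMT1 over EHMT2 changed sign in some. For the rare genes KDM4D and SIRT4 the standard errors of 0.30 and 0.22 exceed the median of 0.05 over the genes not called.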

Other observations

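Of the enzyme genes whose level is given, 5 lie on the X chromosome. KDM5C, KDM6A and HDAC6 rose, and HDAC8 and SUV39H1 were not called, with a median log2 fold change of 0.21 over the 5 genes. Over all 446 tested genes of the X chromosome, 115 were higher and 105 lower, with a median of 0.03. The list of 5 was formed after the values had been seen.

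EHMT2 was not alone in its spread between replicates. Of 68 tested genes with exons on chromosome 6 haplotype sequences and a mean of at least 20 reads, replicate 3 differed at least 2-fold from the mean of replicates 1 and 2 in 11 (16.2%) in control and 10 (14.7%) in PELP1-KD. Among 13653 other genes this held for 32 (0.234%) and 54 (0.395%). The log2 difference of EHMT2 was 2.65 in control and 1.58 in PELP1-KD.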
